A study of Homo sapiens with 6 samples.

Results

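Cells obtain purine nucleotides by building the ring from small precursors or by salvage, which rescues free bases and nucleosides. Nucleosides enter and leave through equilibrative carriers, which run down a gradient, and concentrative carriers, which are driven by sodium. Inside the cell, phosphoribosyltransferases join a purine base to activated ribose, kinases phosphorylate nucleosides, and adenosine deaminase with purine nucleoside phosphorylase turns adenosine and guanosine into free bases. The 9 genes described here are the carriers SLC28A3, SLC29A1 and SLC29A2, the phosphoribosyltransferases APRT and HPRT1, the kinases ADK and DCK, adenosine deaminase ADA and the phosphorylase PNP. They are 9 of 18417 genes measured. They were taken as a listed set, drawn up with earlier results of these data known. The brightest probe with a single gene symbol was to stand for each gene. That probe was to be selected on its mean level over all 6 arrays, the only measured value in the choice of probe. Each of the 9 genes had 1 such probe, so the level decided nothing.

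The RNA came from H441, an established human lung adenocarcinoma line. Control cells received a scrambled siRNA pool and the other cells an siRNA pool against ETS2, an ETS family transcription factor, both by lipid transfection, and RNA was taken 48 h later. Each group held 3 arrays from separate transfections of this 1 line, and 1 siRNA reagent was set against 1 control reagent. Levels are log2 values as deposited, and a difference of 1 on this scale is a doubling. Differences are ETS2 siRNA minus control. A gene was counted as changed at an adjusted p under 0.05 from limma, with Benjamini-Hochberg adjustment over all 18417 genes.

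ETS2 itself stood at 9.79, 9.91 and 9.79 in control cells and 8.87, 8.70 and 8.78 after ETS2 siRNA, or 48.4% of its control level. Of 10 measured markers of lung epithelium, 8 lay above a background floor of 6.67, the 95th percentile of olfactory receptor genes; SFTPC and SCGB1A1, markers of alveolar type II and club cells, did not. Of the 10, 1 changed by limma: SFTPB, a surfactant protein gene, stood at 9.66, 9.66 and 9.80 in control cells and 9.37, 9.32 and 9.36 after ETS2 siRNA, a fall with an adjusted p of 0.0077. The groups did not overlap for 5 of the 10, 3 lower (SFTPB, NKX2-1 and NAPSA) and 2 higher. Over all genes 4.91% changed and 23.1% had groups that did not overlap. Of the 10, 4 were at an unadjusted p under 0.05, and the median difference was -0.002. The log2 levels of the 10 summed to between 111.07 and 111.38 in control cells and between 110.66 and 111.01 after ETS2 siRNA, and the part of this in the results below was not tested. The leukocyte marker PTPRC and the endothelial marker PECAM1 lay below the floor in both groups. Of 18 measured markers of leukocytes, fibroblasts and endothelium, 9 lay above the floor, among them CD68, COL1A1 and KDR. Of these 18, 0 changed by limma, with 4 at an unadjusted p under 0.05. The groups did not overlap for 5 of the 18 (27.8%), 3 lower and 2 higher.

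Upstream sequence is shown for 3 of the genes, since ETS factors bind DNA at a GGAA core and the comparison lowers an ETS factor. APRT is the salvage enzyme that changed, HPRT1 is its counterpart for the other purine bases and did not pass the test, and ADA had the largest positive difference of the 9. Each run is the 250 bases before the RefSeq transcript start in GRCh38.p14, written 5′ to 3′ along the gene's strand, with GGAA, or TTCC where the core lies on the opposite strand, in capitals. The windows are chr16:88811929-88812178 on the minus strand for APRT, chrX:134459915-134460164 on the plus strand for HPRT1 and chr20:44651700-44651949 on the minus strand for ADA.
APRT: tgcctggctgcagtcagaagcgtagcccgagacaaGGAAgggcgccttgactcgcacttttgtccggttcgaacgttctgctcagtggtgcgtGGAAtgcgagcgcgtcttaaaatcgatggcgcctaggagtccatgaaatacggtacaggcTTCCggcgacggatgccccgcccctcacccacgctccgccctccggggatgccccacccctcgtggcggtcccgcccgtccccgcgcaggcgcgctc
HPRT1: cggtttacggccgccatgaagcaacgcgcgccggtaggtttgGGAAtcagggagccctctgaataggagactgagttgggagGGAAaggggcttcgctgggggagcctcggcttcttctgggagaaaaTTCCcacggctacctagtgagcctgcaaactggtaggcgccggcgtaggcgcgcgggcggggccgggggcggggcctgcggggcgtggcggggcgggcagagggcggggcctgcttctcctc
ADA: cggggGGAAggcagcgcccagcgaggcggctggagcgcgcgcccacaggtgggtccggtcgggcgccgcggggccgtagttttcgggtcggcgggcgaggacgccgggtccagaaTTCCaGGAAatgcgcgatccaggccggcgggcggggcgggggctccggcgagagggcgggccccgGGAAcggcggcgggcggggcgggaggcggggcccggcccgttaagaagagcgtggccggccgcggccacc

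RefSeq windows were matched for 7 of the 9 genes, 9 windows in all because SLC29A1 and ADK have 2 starts each; SLC28A3 and SLC29A2 were not matched. The motifs searched on both strands were GGAA, the longer ETS site CCGGAAG, which contains GGAA, and GGGCGG, the GC box bound by Sp1 family factors. GGAA occurred in all 9 windows and in 92.7% of 35116 promoter windows of the same length, so its presence sets none of these genes apart. CCGGAAG occurred in 1 of the 9, that of APRT, on the opposite strand from 98 to 92 bases before the start, against 8.52% of all windows. A count of 1 in 9 is near that share, so nothing is read from it. APRT also held 3 GC boxes, HPRT1 4 and ADA 5, and all 9 windows held at least 1, against 42.6% of all windows. These are matches of letters in a window and were not tested for binding.

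**Figure D1:**
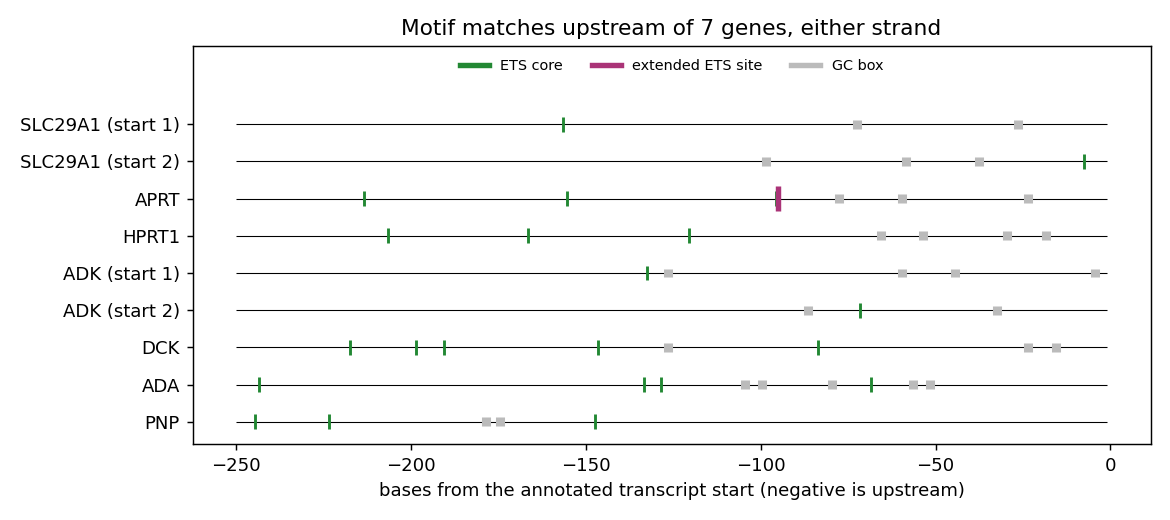
Motif matches in the 250 bases before each annotated start, on either strand, for the 7 genes with a window; the horizontal axis is the distance from the start in bases. Green ticks are ETS cores, the taller purple tick the extended ETS site, which covers a core, and grey ticks GC boxes. The purple tick appears in the APRT window alone, and 8.52% of all promoter windows hold such a site.

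Of the 9 genes, APRT and SLC28A3 fell and none rose, while the other 7 did not pass the test. The 2 called genes are 22.2% of the set, against 4.91% of all genes tested (2.63% called lower and 2.28% higher). The set was listed when both falls were already known, so that share does not support anything by itself. The median difference of the 9 was -0.03, against 0.00 over all genes. The groups did not overlap for 5 of the 9 genes, SLC28A3, SLC29A2 and APRT being lower and ADA and PNP higher, where 23.1% of all genes had groups that did not overlap. All 9 lay above the background floor.

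**Figure D2:**
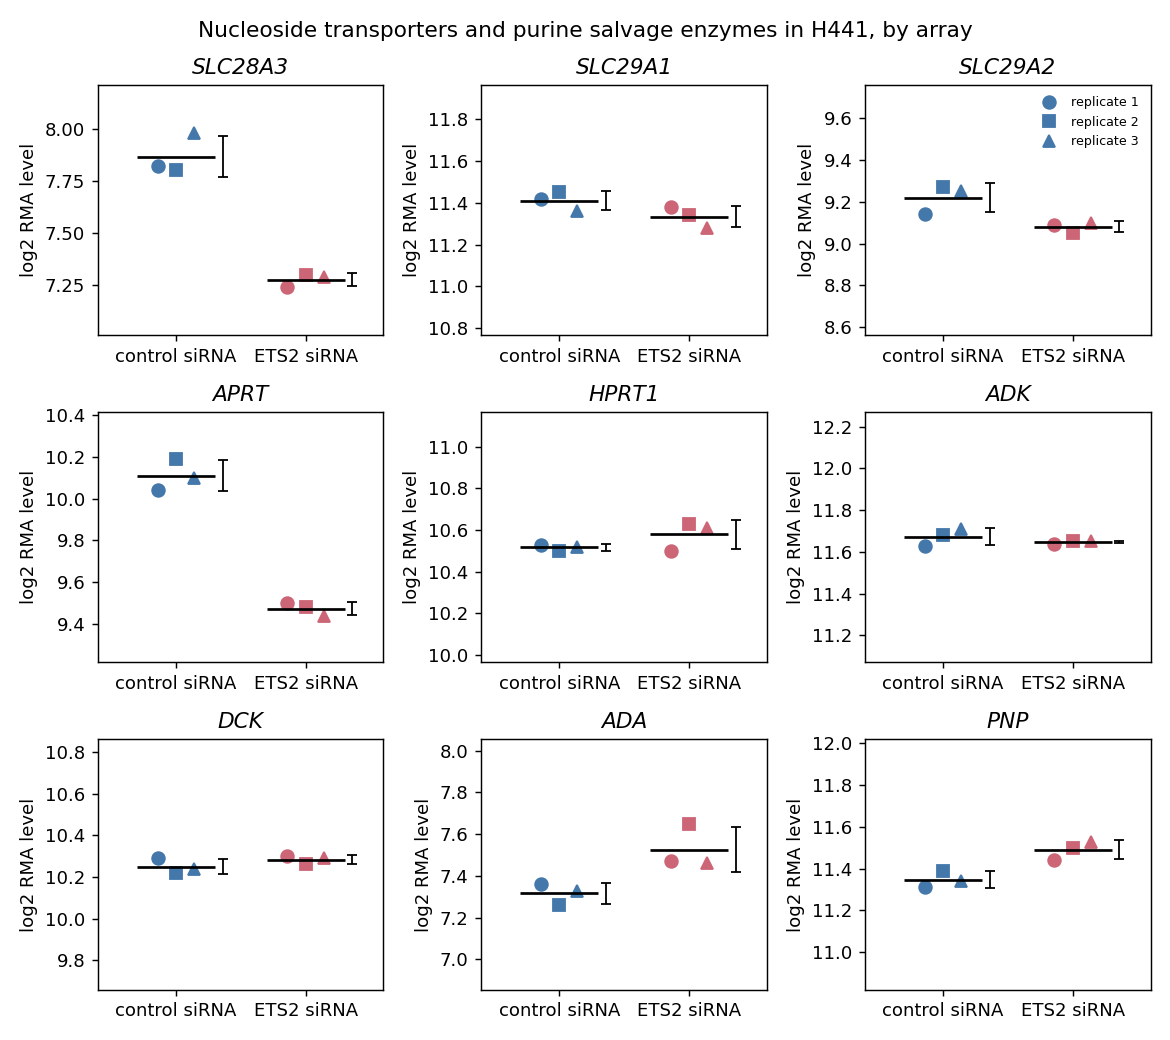
Log2 RMA level (vertical axis, every panel spanning the same range of log2 units) of each gene on the 3 control siRNA and 3 ETS2 siRNA arrays. Points are arrays, with the marker shape giving the replicate number, long bars are means and thin bars SDs (n = 3); APRT and SLC28A3 show the wide gaps, with control arrays down to 10.04 and 7.80 and ETS2 siRNA arrays up to 9.50 and 7.30.

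SLC28A3 encodes the concentrative carrier CNT3, which takes up purine and pyrimidine nucleosides together with sodium. It stood at 7.82, 7.80 and 7.98 in control cells and at 7.24, 7.30 and 7.29 after ETS2 siRNA. The control arrays lay well apart from the others and the groups did not overlap. It fell by 0.59 (SE 0.0547, 95% interval -0.72 to -0.46), to 66.4% of its control level, with a limma adjusted p of 0.00169. Its mean level after ETS2 siRNA, 7.28 ± 0.03 (SD, n = 3), was closest to the floor among the 9 genes, and RMA compresses folds near background.

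SLC29A1 and SLC29A2, the equilibrative carriers among the 9, had differences of the same sign as SLC28A3 and were not called. SLC29A1, which encodes ENT1, the main carrier for nucleosides and many nucleoside drugs in most cells, stood at 11.42, 11.45 and 11.36 in control cells and at 11.38, 11.34 and 11.28 after ETS2 siRNA. Those groups overlapped, and the difference of -0.08 had a 95% interval from -0.18 to 0.03 (limma adjusted p = 0.433). SLC29A2 encodes ENT2, which also carries free bases. It stood at 9.14, 9.27 and 9.25 in control cells and at 9.09, 9.05 and 9.10 after ETS2 siRNA. Every ETS2 siRNA array was below every control array, by as little as 0.04 between the nearest pair, and the difference of -0.14 (95% interval -0.25 to -0.03) was not called (limma adjusted p = 0.144). For ENT1 the interval leaves room for a level between 88.3% and 101.8% of control.

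APRT, the only enzyme known to salvage free adenine in human cells, showed the larger of the 2 falls. It stood at 10.04, 10.19 and 10.10 in control cells and at 9.50, 9.48 and 9.44 after ETS2 siRNA. The ETS2 siRNA arrays lay within 0.06 of each other and far below the lowest control array. It fell by 0.64 (SE 0.0480, 95% interval -0.75 to -0.53), to 64.3% of its control level, with a limma adjusted p of 0.00071. Of all genes tested 15, or 0.0814%, had a fall of at least 1.5-fold. APRT was among them at 1.55-fold, and SLC28A3 lay at that limit, at 1.51-fold. SLC28A3 was under the limit with arrays centred on their medians (-0.58), without control replicate 3 (-0.53) and without ETS2 siRNA replicate 1 (-0.57). Both genes were listed with their falls known, so nothing is read from that share.

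HPRT1, which salvages hypoxanthine and guanine, stood at 10.53, 10.50 and 10.52 in control cells and at 10.50, 10.63 and 10.61 after ETS2 siRNA. The groups overlapped and the difference of 0.06 (95% interval -0.04 to 0.17) did not pass the test (limma adjusted p = 0.543). Its interval, from 97.2% to 112.3% of the control level, does not reach the level to which APRT fell.

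**Figure D3:**
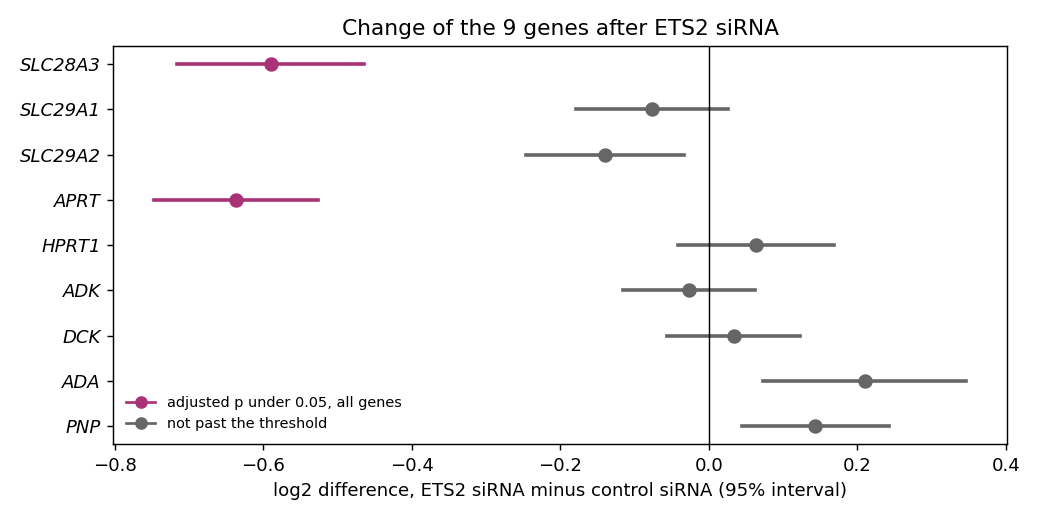
Log2 difference between ETS2 siRNA and control siRNA for each of the 9 genes (points) with 95% intervals from limma (lines), 3 arrays a group; purple marks an adjusted p under 0.05 over all genes. The intervals of APRT and SLC28A3 lie wholly below -0.46, and those of the other 7 genes lie above -0.25.

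ADK phosphorylates adenosine to AMP, and DCK phosphorylates deoxycytidine, deoxyadenosine and deoxyguanosine and activates several nucleoside drugs. ADK stood at 11.63, 11.68 and 11.71 in control cells and at 11.64, 11.65 and 11.65 after ETS2 siRNA. DCK stood at 10.29, 10.22 and 10.24 in control cells and at 10.30, 10.26 and 10.29 after ETS2 siRNA. Both kinases had overlapping groups and small differences. That of ADK was -0.03 (95% interval -0.12 to 0.06, limma adjusted p = 0.798) and that of DCK 0.03 (95% interval -0.06 to 0.12, limma adjusted p = 0.735). Their intervals span 92.3% to 104.4% of control for ADK and 96.2% to 108.9% for DCK.

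ADA, which deaminates adenosine and deoxyadenosine, stood at 7.36, 7.26 and 7.33 in control cells and at 7.47, 7.65 and 7.46 after ETS2 siRNA. Every ETS2 siRNA array was above every control array, with ETS2 siRNA replicate 2 highest. The difference of 0.21 (SE 0.0594, 95% interval 0.07 to 0.35) missed the threshold, with a limma adjusted p of 0.0939. PNP, which splits inosine and guanosine into base and ribose phosphate, stood at 11.31, 11.39 and 11.34 in control cells and at 11.44, 11.50 and 11.53 after ETS2 siRNA. These groups did not overlap either, and the difference was 0.14 (SE 0.0428, 95% interval 0.04 to 0.24, limma adjusted p = 0.110). PNP was called with an intensity trend in the variance (limma adjusted p = 0.00784) and with array weights (0.0403). Over its 11 alternatives with all arrays the adjusted p ran from 0.00784 to 0.209.

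As a description, genes of like role were set against each other within arrays, for 2 pairs, with the mean of the control arrays set to 0. APRT and SLC28A3 were put in these pairs with their falls known, so the values restate those falls beside a gene that was not called. APRT minus HPRT1 was -0.08, 0.10 and -0.01 in control cells and -0.59, -0.74 and -0.76 after ETS2 siRNA, a change of -0.70, so the ratio of APRT to HPRT1 stood at 61.6% of its control value. SLC28A3 minus SLC29A1 was -0.06, -0.11 and 0.16 in control cells and -0.60, -0.50 and -0.45 after ETS2 siRNA, a change of -0.51, to 70.1% of the control ratio. The exact permutation test, two-sided, cannot go below p = 0.1 with 3 arrays against 3, the value it gave for each pair (0.1 after Benjamini-Hochberg adjustment over both), so an unequal change of the genes in a pair is not shown by a test.

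**Figure D4:**
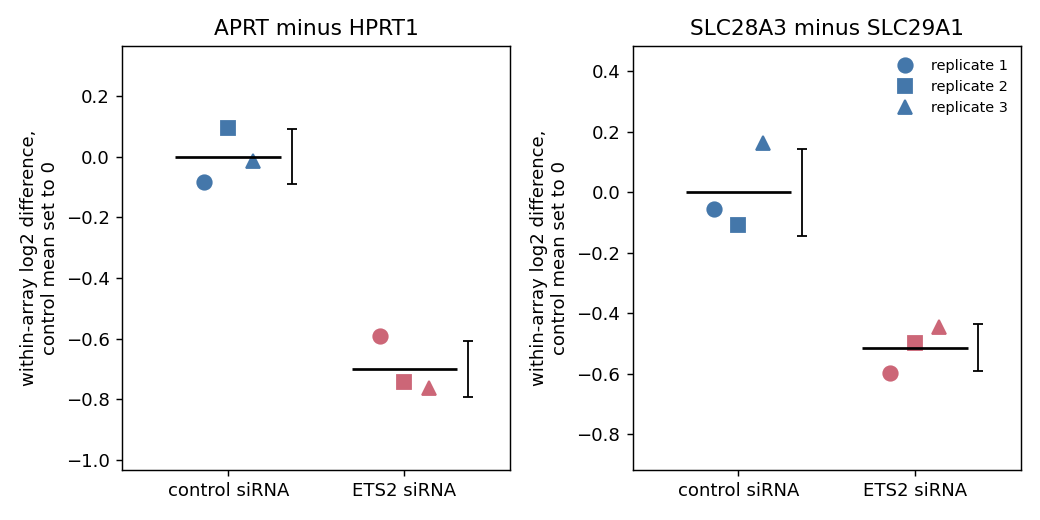
Within-array log2 difference of APRT minus HPRT1 (left) and SLC28A3 minus SLC29A1 (right), with the mean of the 3 control arrays set to 0. Points are arrays, long bars are means and thin bars SDs (n = 3); the ETS2 siRNA arrays average -0.70 and -0.51.

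The genes most like APRT and SLC28A3 over the 6 arrays were found by the root mean square distance between values centred on each gene's mean, among genes above the floor. For APRT they were HELZ (distance 0.0344), ACY1 (0.0404) and NAALADL2 (0.0524), with differences of -0.61, -0.71 and -0.59. For SLC28A3 they were TMEM184C (0.0660), LYPLA1 (0.0675) and HELZ (0.0677), with differences of -0.51, -0.54 and -0.61. With 2 groups of 3 arrays, any gene that fell by a like amount comes out as similar.

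The wider pathway was read through 9 lists of transport, salvage, synthesis and breakdown genes, 105 genes with the 9 above included. A probe with a single symbol measured 91 of them, and 14 had none. Of those 14, 6 were named on 7 probes that carry several symbols, of which 0 changed when all probes were tested with limma (0 at an unadjusted p under 0.05), with differences between -0.06 and 0.03. Leaving out the 9, 82 genes were measured, of which 5 rose and 4 fell (11.0% called, against 4.91% of all genes). Their median difference was 0.02. Of these 9 calls, 1, that of AK4, held with any single array left out, and 5 were lost whichever array was left out.

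In transport, 0 of the other 4 measured carriers changed by limma, with 1 at an unadjusted p under 0.05. SLC29A3, which encodes the lysosomal and mitochondrial carrier ENT3, stood at 8.83, 8.85 and 8.77 in control cells and at 8.57, 8.64 and 8.69 after ETS2 siRNA, a difference of -0.18 (limma adjusted p = 0.0658). It passed the threshold when genes below the floor were left out (limma adjusted p = 0.0335) or with an intensity trend (0.0300), within a range over its 11 alternatives with all arrays of 0.0300 to 0.151. SLC28A2, the purine-preferring concentrative carrier CNT2, lay below the floor in both groups and differed by 0.09 (limma adjusted p = 0.372). SLC28A1 (CNT1) also lay below the floor, so of the concentrative carriers SLC28A3 alone was above background on these arrays. The equilibrative carrier SLC29A4 had a mean of 8.17 in both groups.

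Among 12 purine salvage enzymes, the 6 members included, 2 rose and 1 fell, with a median of 0.05. That is 25% called, against 4.91% of all genes. The 1 that fell is APRT, listed with its fall known. MTAP, which recovers adenine from the by-product of polyamine synthesis and so supplies the substrate of APRT, rose by 0.28. It stood at 8.55, 8.70 and 8.68 in control cells and at 8.92, 8.90 and 8.94 after ETS2 siRNA (SE 0.0487, limma adjusted p = 0.0188). The groups did not overlap. The call on MTAP was lost without control replicate 3 or without any 1 of the ETS2 siRNA arrays (limma adjusted p up to 0.0908). PRPSAP2, which binds the enzyme that makes activated ribose, rose by 0.18 (limma adjusted p = 0.0393), and lost its call with any array left out (up to 0.154).

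**Figure D5:**
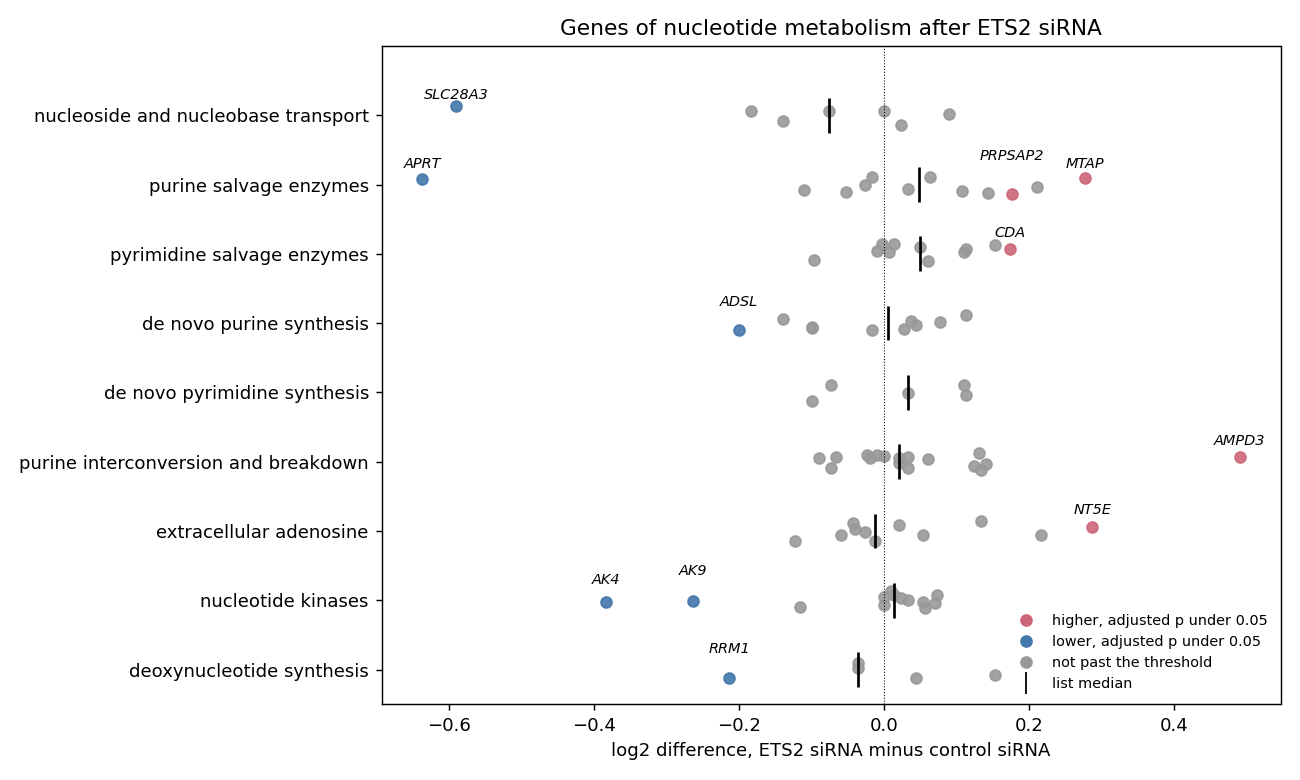
Log2 difference between ETS2 siRNA and control siRNA (horizontal axis) for the 91 measured genes of 9 lists; each point is a gene, red for higher and blue for lower at an adjusted p under 0.05 over all genes, and black bars are list medians. Medians lie between -0.08 and 0.05, and APRT and SLC28A3 are the points farthest to the left.

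Genes that make purines anew showed 1 call among 10 measured (10%, against 4.91% of all genes), with a median of 0.005. ADSL, which acts both in building the ring and in the step from IMP to AMP, fell by 0.20 (SE 0.0410, limma adjusted p = 0.0325), and the call was lost with any array left out (up to 0.117). In pyrimidine synthesis 0 of 5 genes changed by limma, with 2 at an unadjusted p under 0.05. These were UMPS, which makes UMP, at 0.11 (limma adjusted p = 0.159), and CAD, which starts the pathway, at -0.10 (limma adjusted p = 0.211).

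Pyrimidine salvage had 1 call among 11 genes (9.09%, against 4.91% of all genes), with a median of 0.05. CDA, which deaminates cytidine and deoxycytidine and inactivates several cytidine drugs, rose by 0.17 (SE 0.0394, limma adjusted p = 0.0468), and lost its call with any array left out (up to 0.171). Among 13 measured nucleotide kinases 2 fell (15.4% called, against 4.91% of all genes), with a median of 0.01. AK4, a mitochondrial adenylate kinase, stood at 11.08, 11.15 and 11.13 in control cells and at 10.72, 10.79 and 10.70 after ETS2 siRNA. It fell by 0.38 (SE 0.0424, limma adjusted p = 0.00326). Its other probe read -0.18, and AK4 has closely similar pseudogene copies, so the value of either probe is uncertain. The call on AK4 rests on its brightest probe, which may read such a copy. AK9 fell by 0.26 on its brightest probe (limma adjusted p = 0.0446), while its other 2 probes, both below the floor, read -0.02 and -0.08. The brightest probe itself averaged 6.91, only 0.24 above the floor. The call on AK9 was lost with any array left out (up to 0.165). Of 5 deoxynucleotide synthesis genes 1 fell (20% called, against 4.91% of all genes), with a median of -0.04. RRM1, whose product is part of the reductase that makes deoxynucleotides, fell by 0.21 (limma adjusted p = 0.0275), and lost its call with any array left out (up to 0.118). RRM2, for another part of that reductase, differed by 0.15 and was not called (limma adjusted p = 0.0909). Every ETS2 siRNA array was above every control array for RRM2.

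On the side of breakdown, 1 of 17 measured genes changed (5.88%, against 4.91% of all genes), with a median of 0.02. AMPD3, an AMP deaminase that turns AMP into IMP, stood at 7.61, 7.71 and 7.81 in control cells and at 8.09, 8.29 and 8.22 after ETS2 siRNA. It rose by 0.49 (SE 0.0675, limma adjusted p = 0.0077), and the groups were well apart. AMPD2, its relative, differed by 0.00. Of 11 genes of extracellular adenosine 1 rose (9.09% called, against 4.91% of all genes), with a median of -0.01. NT5E, the ectoenzyme CD73 that makes adenosine from AMP outside the cell, stood at 11.82, 11.81 and 11.90 in control cells and at 12.11, 12.10 and 12.18 after ETS2 siRNA, a rise of 0.29 (SE 0.0439, limma adjusted p = 0.0116). Without ETS2 siRNA replicate 3 the calls on AMPD3 and NT5E were lost (limma adjusted p = 0.0510 and 0.0622). Their differences were then 0.48 and 0.26.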

How the data were processed

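The authors deposited log2 expression levels made with RMA (background correction, normalisation between arrays, probe summary), per the submitters' processing notes. Its version and settings, the annotation and the build are not stated there. RMA would remove a shift common to every gene. Values were rounded to 2 decimals. Of 33297 probes, 19460 carried 1 gene symbol; the brightest per gene gave 18417 genes. All 6 arrays entered 1 fit (lmFit and eBayes of limma 3.58.1, R 4.3.3, two-sided). The procedure was also run on simulated arrays with known differences. There the spread was shuffled between genes and so not tied to level, so that run cannot show how the fit performs on these data. The number of arrays limits the precision. P-values measure the spread between transfections of 1 cell line. Genes named are the 9 listed, ETS2 and the 3 genes most like each changed member. Up to 4 other changed genes per list were named by size of change (in a list with none, the 2 of smallest p). SLC28A1, SLC29A4, AMPD2, RRM2 and the cell markers were named after their values were seen. The members, lists and rules were chosen with earlier results of these data known. Alternatives were the replicate block, 3 array scalings, 2 filters on dim genes, 2 probe rules, 2 variance models, array weights and each array left out.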

Additional observations from a re-analysis of the deposited data

How the results depend on the processing

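The falls of APRT and SLC28A3 were called under all 11 alternatives and with each of the 6 arrays left out. APRT ranged from -0.67 to -0.60 with an array left out (limma adjusted p 0.00273 to 0.00898) and SLC28A3 from -0.62 to -0.53 (0.00422 to 0.0161). None of the 9 members changed sign under any setting. Their differences could not change under the replicate block, the filters, the probe rules or the variance models, so the sign was fixed there. Each member has 1 probe, so the mean over probes fitted the same values again. PNP was called with an intensity trend (0.14) and with array weights (0.16), so the members called higher went from 0 to 1 in each. The number of genes called over the whole table varied widely. Against 904 it was 1397 and 1414 under the filters for 1 or both group means above the floor, 399 with all probes tested, 1963 with the trend and 1480 with array weights. The genes called lower, 484, became 229 with all probes and 974 with the trend. The genes called higher, 420, became 279 with the replicate block, 689 and 700 under the filters, 170 with all probes, 989 with the trend and 780 with array weights. Leaving out an array gave 213 to 735 calls, 117 to 323 lower and 96 to 412 higher. It was 213 without ETS2 siRNA replicate 3, 274 without ETS2 siRNA replicate 2, 377 without ETS2 siRNA replicate 1, 356 without control replicate 3 and 421 without control replicate 1. Among the 82 other pathway genes, the 4 lower calls became 1 with the replicate block, 1 with all probes and 8 with the trend, and the 5 higher calls 3, 2 and 8. With an array left out they were 1 lower and 0 to 3 higher, with 0 without ETS2 siRNA replicate 3. The filters and the test of all probes change which features enter the fit and how many are adjusted for. Otherwise the cause was not tested. The within-array changes ranged from -0.75 to -0.65 for APRT minus HPRT1 and from -0.57 to -0.43 for SLC28A3 minus SLC29A1. Same-numbered arrays had correlations of their deviations of 0.18, 0.18 and 0.04, and unlike-numbered arrays between -0.20 and 0.07. Whether the numbers mark pairs was not tested. The main fit did not use them as pairs, and under the replicate block the calls on the 9 members did not change.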
